A study of Mus musculus with 24 samples.

Results

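LSK GFPhi cells of Ikaros-null (KO) mice, which the labels name LMPP (lymphoid-primed multipotent progenitors), were compared with LSK GFPneg-lo cells of KO mice, which the labels name HSC (hematopoietic stem cells). The comparison took the 3 arrays titled KO LSK GFPhi and the 3 titled KO LSK GFPneg-lo, 6 of the 24 one-colour Affymetrix mouse arrays of the study, and covered 18193 genes. The KO mice were of the I74 line (C57BL/6 x 129SV), and every mouse, KO or wild type (WT), carried the B-p-GFP-C reporter (line C57BL/6 x C3H), in which Ikaros regulatory sequence drives GFP. LSK denotes lineage-negative, Sca-1-positive, Kit-positive bone marrow cells in the field's usage, and the reporter split them into a high GFP fraction and a fraction with negative to very low GFP. WT LSK GFPhi and WT LSK GFPneg-lo cells, also 3 arrays each, served to set the same step beside the KO step. The difference GFPhi minus GFPneg-lo is called the KO step in KO mice and the WT step in WT mice. Ages were not given, and nothing states whether an array holds 1 animal or a pool, so the p-values measure only the spread between arrays titled as biological replicates. The gate rests on GFP and not on Flt3, the strain background differs between the lines, and genotype and strain cannot be told apart where KO and WT are set side by side.

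Stem cells give rise to all blood lineages and keep open several programs at a low level, among them early erythroid and megakaryocyte genes. In the LMPP, the receptor tyrosine kinase Flt3 is switched on, the megakaryocyte and erythroid program is closed, and lymphoid genes such as Dntt, Rag1 and Il7r begin to be transcribed beside genes of the granulocyte and monocyte path. Ikaros, the zinc finger transcription factor encoded by Ikzf1, is needed for lymphocyte formation in mice and acts in part with chromatin remodelling and deacetylase complexes.

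Values are log2 array signals made by the authors with RMA, differences stand with the standard error of the limma fit (each group n = 3), and calling a gene required a Benjamini-Hochberg adjusted p from limma under 0.05. Ikzf1 (chromosome 11, 11684962 to 11772930, GRCm38.p6) was at 8.19, 7.02 and 7.07 on the KO LSK GFPhi arrays and at 8.02, 7.23 and 7.31 on the KO LSK GFPneg-lo arrays. Its WT means were 11.57 ± 0.15 in LSK GFPhi and 11.15 ± 0.19 in LSK GFPneg-lo (SD, n = 3), so all KO arrays lay below all WT arrays. Over all genes, which are no replicates, arrays of the KO LSK GFPhi group correlated at r = 0.989 to 0.996 and those of KO LSK GFPneg-lo at r = 0.986 to 0.995. The Y-linked gene Eif2s3y had signals of 3.99, 7.20 and 4.13 (replicates 1, 2 and 3) in KO LSK GFPhi, against 4.14, 7.99 and 4.01 in KO LSK GFPneg-lo, so replicate 2 stood apart in both groups alike, and none of the 4 sex-linked genes measured was called. The mean of these 4 genes was 7.03 to 8.44 in KO LSK GFPhi and 7.12 to 8.74 in KO LSK GFPneg-lo, below every WT array (8.88 to 9.56), so sex-linked signal too cannot be told apart from genotype where KO and WT are set side by side. In bulk samples, a change in the share of cells that make an RNA and a change of its amount per cell cannot be told apart.

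The KO step comprised 429 called genes, of which 170 were higher and 259 lower in KO LSK GFPhi, or 2.36% of the genes tested (0.934% higher and 1.42% lower). The arrays of the KO groups did not overlap for any of the 429, against 21.0% of all genes. As the 429 were called on these same arrays, this is a description and adds no support to the calls. The median difference over all genes was 0.024. With the replicate number as a block, which the correlation of same-numbered arrays allowed, the KO step held 889 called genes, 315 higher and 574 lower. At least 2-fold differences made up 238 of the 429 (1.31% of all genes). The WT step held 822 called genes (4.52%), 296 higher and 526 lower, of which 374 (2.06%) were at least 2-fold, and 1491 with the block. The difference between the KO and WT steps, tested as an interaction, was called for 57 genes (0.313%), 36 with the KO step above the WT step and 21 with it below, and for 101 with the block (73 and 28). Leaving out KO LSK GFPhi replicate 1 or 3 lowered the 429 calls to 270 or 281.

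**Figure D1:**
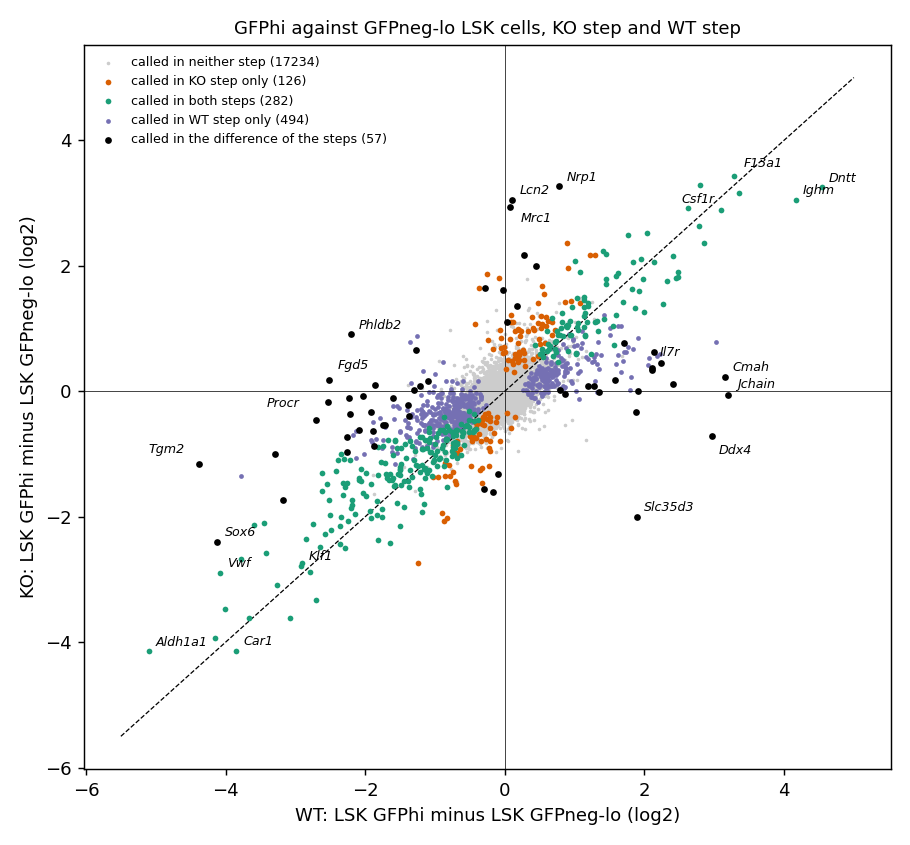
Each point is a gene, with the KO step (LSK GFPhi minus LSK GFPneg-lo, log2) on the vertical axis, the WT step on the horizontal axis and the dashed line marking equal steps. Genes called in both steps lie to the lower left and upper right, except Slc35d3 to the lower right, and the 57 black points, called in the difference, include Lcn2 and Mrc1 high on the vertical axis near a WT step of 0, and Jchain and Cmah far right near a KO step of 0.

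The label was checked against its markers. Of 10 measured stem cell markers, 7 were lower in KO LSK GFPhi (Slamf1, Hlf, Mecom, Mllt3, Vwf, Tek and Gata2), against 1.42% of all genes. Procr, Fgd5 and Meis1 were not called. Of 9 measured markers of lymphoid-primed progenitors, 4 were higher (Dntt, Ighm, Satb1 and Flt3), against 0.934% of all genes. Il7r, Rag1, Ccr9, Notch1 and Ltb were not called. In the WT step, 9 of the 10 stem cell markers were lower (against 2.89% of all genes). There 8 of the 9 lymphoid-primed markers were higher (against 1.63% of all genes). Kit, the receptor of the LSK gate, had a difference of -0.74 ± 0.38 (adjusted p = 0.510, and 0.0361 with the block). The KO LSK GFPhi population thus had lower levels of most stem cell markers and higher levels of part of the LMPP markers, and the name LMPP is used below only as the labels' name for the gate.

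Promoter sequence is shown for 3 genes described below. Klf1 and Rhag are erythroid genes that were among the largest falls of the KO step. Rag1 is the lymphoid recombinase gene, called in the WT step and not in the KO step, with signals near the low end of the scale. The sequences are RefSeq windows of 300 bases around a transcript start (GRCm38.p6), 5′ to 3′ on the gene's strand. Capitals mark GATAAG, the core bound by GATA factors, which reads CTTATC on the other strand, in Klf1 (chr8:84901732-84902031, plus strand, position 170 of the window) and Rhag (chr17:40810899-40811198, plus strand, position 219). In Rag1 (chr2:101649483-101649782, minus strand, position 199) they mark TGGGAA, the core bound by Ikaros proteins.
Klf1: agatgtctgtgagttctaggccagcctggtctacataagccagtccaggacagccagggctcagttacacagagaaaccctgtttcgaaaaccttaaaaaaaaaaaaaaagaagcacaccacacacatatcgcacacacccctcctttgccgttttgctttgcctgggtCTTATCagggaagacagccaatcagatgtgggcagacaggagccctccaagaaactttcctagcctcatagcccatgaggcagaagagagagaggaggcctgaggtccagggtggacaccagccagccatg
Rhag: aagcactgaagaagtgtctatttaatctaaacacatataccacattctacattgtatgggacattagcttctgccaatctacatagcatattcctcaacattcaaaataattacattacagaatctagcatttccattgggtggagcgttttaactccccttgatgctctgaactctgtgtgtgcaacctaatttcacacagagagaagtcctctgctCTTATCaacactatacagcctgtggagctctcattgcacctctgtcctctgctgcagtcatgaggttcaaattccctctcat
Rag1: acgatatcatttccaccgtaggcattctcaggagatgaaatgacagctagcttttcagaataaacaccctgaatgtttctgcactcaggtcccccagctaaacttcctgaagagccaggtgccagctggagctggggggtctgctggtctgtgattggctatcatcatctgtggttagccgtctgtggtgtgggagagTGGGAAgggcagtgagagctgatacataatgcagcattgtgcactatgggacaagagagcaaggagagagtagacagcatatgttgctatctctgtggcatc

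GATAAG, on either strand, was found in the windows of 6 of the 10 erythroid genes that were lower in KO LSK GFPhi and had a window (60%). These were Epor, Icam4, Kel, Klf1, Rhag and Rhd, and TGGGAA was in the windows of 3 others of the 10 (Aqp1, Ermap and Zfpm1). GATAAG was found in 7.24% of the 14452 genes of the fit with a window, in 11.9% of the 201 genes lower in KO LSK GFPhi and in 8.0% of the 125 higher. TGGGAA, likewise on either strand, was in the windows of 8 of 18 genes whose KO step lay below the WT step (44.4%), of 7 of 28 whose KO step lay above it (25.0%) and of 27.5% of the genes of the fit. The 8 include Rag1, shown above, and do not include Cmah, Jchain, Il7r, Sdc1 or Ddx4. A match is a description of these letters and not a binding site, and the shares were not tested.

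Stem cell genes formed a group that fell in the KO step, with exceptions. Of 27 measured, 14 were lower in KO LSK GFPhi and 0 higher (51.9% called against 2.36% of all genes), with a median of -1.0. The WT step had 21 lower and 0 higher (77.8% called against 4.52% of all genes), with a median of -1.53. The mean of the list lay between 8.60 and 8.71 on the KO LSK GFPhi arrays and between 9.52 and 9.89 on the KO LSK GFPneg-lo arrays.

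Slamf1 (chromosome 1, 171767131 to 171801184), the CD150 antigen used to sort stem cells, was at 7.74, 8.05 and 7.71 in KO LSK GFPhi and at 9.58, 10.11 and 10.23 in KO LSK GFPneg-lo. The groups were about 2 log2 units apart with no overlap, a difference of -2.14 ± 0.24 (adjusted p = 1.99e-05), and the WT step was -2.36 ± 0.24. Vwf (chromosome 6, 125552948 to 125686679), which encodes von Willebrand factor and marks platelet-biased stem cells, was at 7.36, 8.60 and 8.41 in KO LSK GFPhi and at 10.41, 11.65 and 10.98 in KO LSK GFPneg-lo. It fell by 2.89 on the log2 scale (standard error 0.52, adjusted p = 0.00238), and its level in KO LSK GFPhi stayed above the WT LSK GFPhi arrays (4.70, 4.96 and 5.11). Ndn, a growth suppressor gene of quiescent stem cells, fell by 2.88 (standard error 0.30, adjusted p = 7.81e-06). Among transcription factors that maintain stem cells, Mecom (-1.31 ± 0.25) and Hlf (-1.13 ± 0.22) fell, as did Gata2 (-0.84 ± 0.18, adjusted p = 0.0118). Cdkn1c, the p57 inhibitor of the cell cycle, fell by 1.25 (standard error 0.21), and Hoxb5, a homeobox gene that marks long-term stem cells, by 0.96 (standard error 0.17). Tek, the angiopoietin receptor Tie2, fell by 1.30 (standard error 0.30, adjusted p = 0.0217). The Gata2 call was lost without KO LSK GFPneg-lo replicate 2 (-0.71, adjusted p = 0.0824) or KO LSK GFPhi replicate 1 (-0.68, 0.101). The Tek call was lost without any 1 of 4 arrays (KO LSK GFPneg-lo replicate 1 or 3, KO LSK GFPhi replicate 1 or 3; adjusted p 0.0653 to 0.122). In a fit of the 6 KO arrays alone Cdkn1c (adjusted p = 0.111), Hlf (0.0631) and Gata2 (0.0715) were not called.

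Fgd5 (chromosome 6, 91978827 to 92076005), a guanine nucleotide exchange factor gene whose reporter marks stem cells, was among the 13 members not called. It was at 11.45, 11.17 and 11.34 in KO LSK GFPhi and at 11.66, 10.96 and 10.80 in KO LSK GFPneg-lo. The groups overlapped, with a difference of 0.18 ± 0.26. In WT cells it was at 7.52, 7.39 and 7.37 in LSK GFPhi and at 10.16, 10.25 and 9.43 in LSK GFPneg-lo, a difference of -2.52 ± 0.26, and the KO step lay above the WT step by 2.70 ± 0.37 (adjusted p = 0.00155). Procr (chromosome 2, 155751125 to 155755478), the endothelial protein C receptor and a surface marker of stem cells, was at 11.30, 11.59 and 11.49 in KO LSK GFPhi and at 12.23, 11.36 and 11.28 in KO LSK GFPneg-lo. Here too the KO groups overlapped (-0.17 ± 0.27), whereas WT LSK GFPhi (9.27, 8.39 and 9.29) lay below WT LSK GFPneg-lo (11.93, 11.16 and 11.43). The KO step of Procr exceeded the WT step by 2.36 ± 0.38 (adjusted p = 0.00381). Esam and Tie1, an adhesion and a receptor gene of stem and endothelial cells, were the other 2 members called in this direction of the difference (KO steps -0.40 and -0.36, WT steps -1.37 and -2.21). In all, 4 of 27 members were called there (background 0.198%) and 0 the other way. The difference of Esam lost its call without any 1 of 8 of the 12 arrays and that of Tie1 without any 1 of 5, while the KO step of Esam was called with the replicate block (adjusted p = 0.0251).

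Erythroid genes fell in both steps. Of 23 measured, 13 were lower in KO LSK GFPhi and 0 higher (56.5% called against 2.36% of all genes, median -1.07). The WT step had 14 lower and 0 higher (60.9% against 4.52%, median -0.83). In the difference of the steps limma called 0 of 23 (2 at an unadjusted p under 0.05). The list's mean was 7.83 to 8.03 on the KO LSK GFPhi arrays and 9.22 to 9.32 on the KO LSK GFPneg-lo arrays. Car1 (chromosome 3, 14766214 to 14808365), the red cell carbonic anhydrase, was at 8.20, 6.65 and 7.60 in KO LSK GFPhi and at 12.71, 11.07 and 11.07 in KO LSK GFPneg-lo. It had the largest erythroid fall, -4.13 ± 0.48 (adjusted p = 2.33e-05), with no overlap between the groups. Rhag, the Rh-associated glycoprotein whose promoter is shown above, was at 6.48, 5.75 and 6.10 in KO LSK GFPhi and at 10.36, 9.40 and 9.44 in KO LSK GFPneg-lo (-3.62 ± 0.42, adjusted p = 2.34e-05). Klf1, the master regulator of the red cell program, was at 6.78, 7.27 and 7.61 in KO LSK GFPhi and at 10.10, 9.87 and 10.03 in KO LSK GFPneg-lo. Its KO step was -2.78 ± 0.36 (adjusted p = 7.75e-05), its WT step was -2.91 ± 0.36, and the difference of the steps was 0.13 ± 0.51. Gata1, the founding erythroid and megakaryocyte GATA factor, fell by 2.36 (standard error 0.45, adjusted p = 0.00428), and Ermap, a red cell membrane protein gene, by 3.09 (standard error 0.36). Epor, the erythropoietin receptor gene, was lower by a smaller amount (-1.07 ± 0.15, adjusted p = 0.000155). Among genes of late red cells, Alas2 (-0.09), Slc4a1 (-0.09), Hba-a1 (0.16) and Epb42 (0.15) were not called.

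Megakaryocyte genes fell as well. Of 22 measured, 12 were lower in KO LSK GFPhi and 0 higher (54.5% called against 2.36% of all genes, median -1.06). The WT step had 8 lower and 0 higher (36.4% against 4.52%, median -0.84). Vwf is on this list and on the stem cell list, and Nfe2 is shared with the erythroid list. Cavin2, a caveola protein gene active in platelets, was at 5.48, 6.94 and 6.46 in KO LSK GFPhi and at 8.50, 11.32 and 10.86 in KO LSK GFPneg-lo. Both groups spread by over 1 log2 unit, with replicate 1 lowest in each, and they did not overlap (-3.94 ± 0.57, adjusted p = 0.000272). Pf4, platelet factor 4, fell by 2.68 (standard error 0.54, adjusted p = 0.00646), a call lost without KO LSK GFPhi replicate 1 (-2.36, adjusted p = 0.0555). Itga2b, the CD41 integrin chain, fell by 1.73 (standard error 0.24), and Gp5, a subunit of the platelet receptor for von Willebrand factor, by 1.63 (standard error 0.23). F2rl2, a thrombin receptor gene, fell in the KO step (-1.60 ± 0.20, adjusted p = 5.79e-05) and was not called in the WT step (-0.17 ± 0.20). It was at 7.87, 8.04 and 7.72 in KO LSK GFPhi and at 8.80, 9.91 and 9.72 in KO LSK GFPneg-lo, against 7.38 to 7.73 on all 6 WT arrays. The steps of F2rl2 differed by -1.43 ± 0.29 (adjusted p = 0.0312). Among the fits that left out 1 array this was called only without KO LSK GFPneg-lo replicate 1.

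The remaining large falls were spread over other functions. Aldh1a1, a retinaldehyde dehydrogenase gene, was at 5.60, 5.59 and 5.91 in KO LSK GFPhi and at 10.25, 9.65 and 9.63 in KO LSK GFPneg-lo. At -4.14 ± 0.51 (adjusted p = 4.37e-05) it was the largest fall named, and its WT step was -5.10 ± 0.51. Clca3a1, a member of the chloride channel accessory family (-3.61 ± 0.35), the amino acid transporter gene Slc38a5 (-3.33 ± 0.30) and Myh10, non-muscle myosin heavy chain IIB (-2.74 ± 0.24), fell as well. Mfsd2b, the sphingosine-1-phosphate exporter gene of red cells and platelets, was at 4.64, 7.94 and 7.07 in KO LSK GFPhi and at 9.12, 10.77 and 10.18 in KO LSK GFPneg-lo. Its KO step of -3.48 ± 0.73 (adjusted p = 0.00976) was not called without KO LSK GFPneg-lo replicate 2 (-3.10, adjusted p = 0.0638) or KO LSK GFPhi replicate 1 (-2.52, 0.0818). Nor was it called in a fit of the 6 KO arrays alone (adjusted p = 0.0915).

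**Figure D2:**
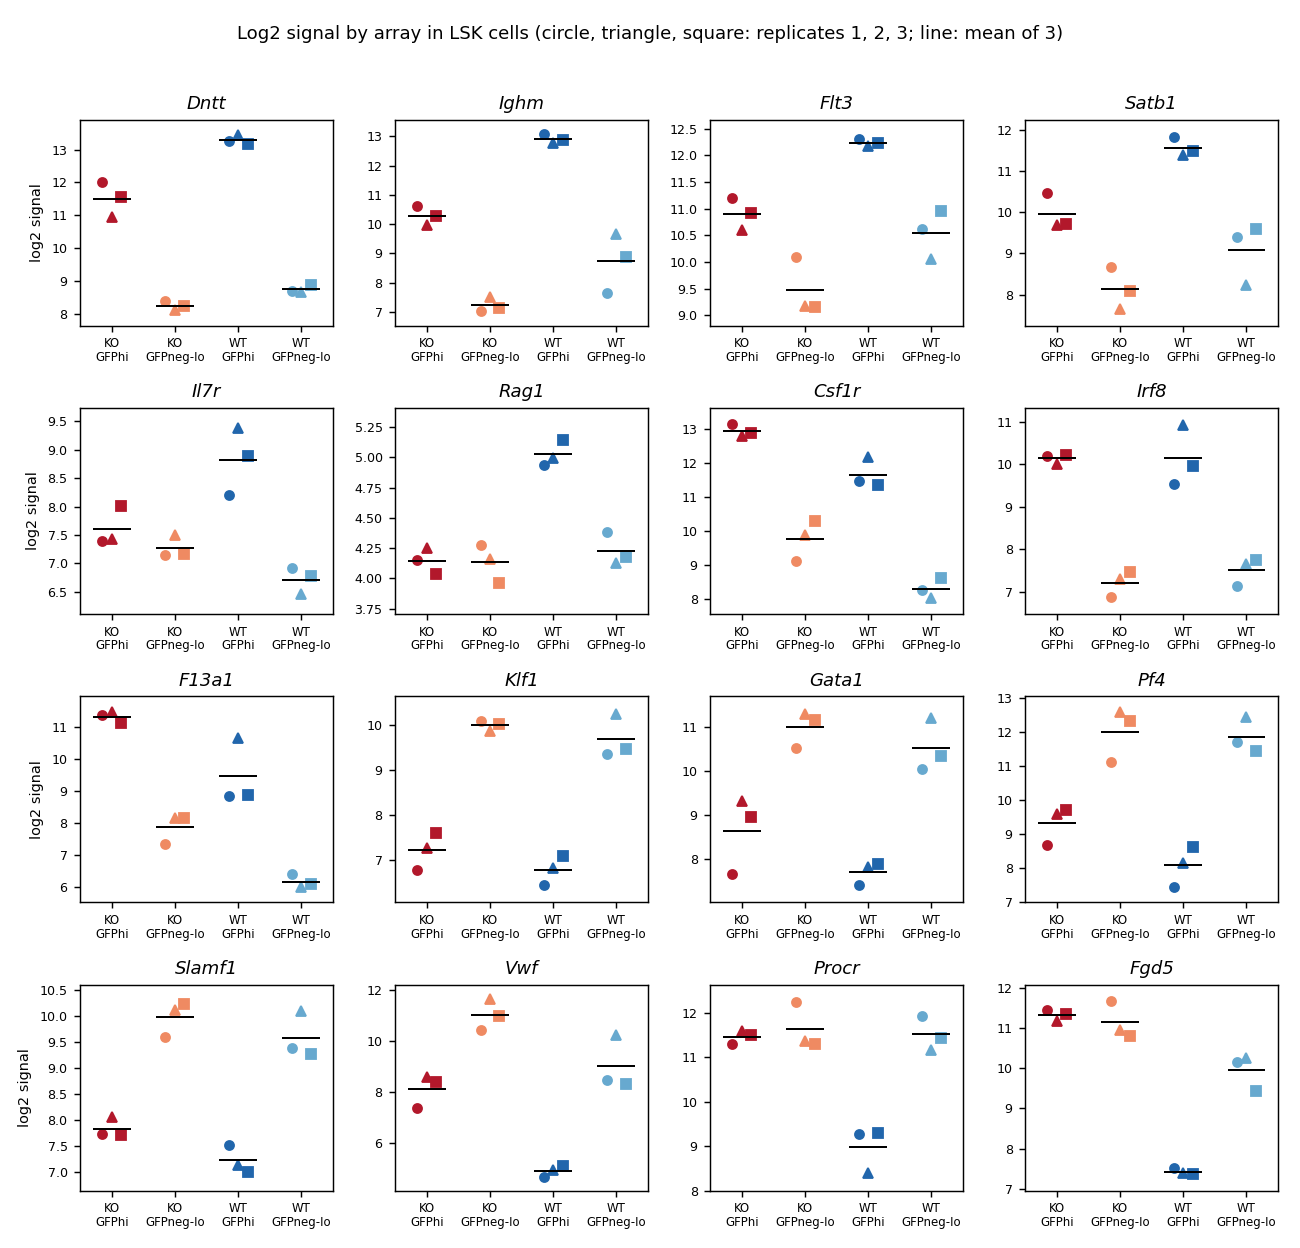
Log2 signal of 16 genes on each LSK array, with KO GFPhi, KO GFPneg-lo, WT GFPhi and WT GFPneg-lo from left to right, replicates 1, 2 and 3 as circle, triangle and square, and the mean as a line. Dntt, Ighm, Satb1 and Flt3 are higher in GFPhi in both genotypes, and Il7r and Rag1 separate the WT groups but not the KO groups. Procr and Fgd5 stay high in KO GFPhi and are lower in WT GFPhi than in WT GFPneg-lo.

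Early lymphoid genes divided. Of 24 measured, 4 were higher in KO LSK GFPhi (Dntt, Ighm, Satb1 and Flt3) and 1 was lower (the cannabinoid receptor gene Cnr2, -1.09). These made up 20.8%, against 2.36% of all genes, and the list's median was 0.17. The Cnr2 call was kept only without KO LSK GFPneg-lo replicate 1 among the 6 omissions. The WT step had 13 higher and 1 lower (58.3% against 4.52% of all genes) with a median of 0.78. The list's mean lay between 8.20 and 8.36 on the KO LSK GFPhi arrays and between 7.74 and 7.96 on the KO LSK GFPneg-lo arrays, and the WT arrays were at 9.07 to 9.14 in LSK GFPhi and 7.94 to 8.15 in LSK GFPneg-lo.

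Dntt (chromosome 19, 41029275 to 41059525), terminal deoxynucleotidyl transferase of antigen receptor rearrangement, was at 12.01, 10.95 and 11.54 in KO LSK GFPhi and at 8.40, 8.11 and 8.24 in KO LSK GFPneg-lo. It rose 9.51-fold in the KO step (3.25 ± 0.48, adjusted p = 0.000304), below the WT LSK GFPhi arrays at 13.25, 13.44 and 13.15. Its other 2 probe sets gave smaller KO steps (1.37 and 1.42) beside WT steps of 3.07 and 4.81. When probe sets ending in _x_at and _s_at were left out, the KO step of Dntt was 1.42 (adjusted p = 0.104) and the steps differed by -3.39 (adjusted p = 0.0148), whereas by the brightest probe set they differed by -1.29 ± 0.67, which was not called.

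Ighm (chromosome 12, 113418826 to 113422730), the immunoglobulin mu constant region, which is transcribed from the unrearranged locus in early progenitors, was at 10.62, 9.96 and 10.30 in KO LSK GFPhi and at 7.04, 7.53 and 7.15 in KO LSK GFPneg-lo. It rose by 3.05 ± 0.36 (adjusted p = 2.87e-05), and the WT step was 4.17 ± 0.36. A second probe set gave a KO step of 2.79 and a WT step of 4.31, and its other 9 probe sets gave KO steps between -0.02 and 0.25. Satb1 (chromosome 17, 51736187 to 51833290), a chromatin organiser of lymphoid progenitors, was at 10.46, 9.69 and 9.71 in KO LSK GFPhi and at 8.67, 7.66 and 8.08 in KO LSK GFPneg-lo (1.82 ± 0.31, adjusted p = 0.00158). Flt3 (chromosome 5, 147330741 to 147400489), whose surface protein defines the LMPP in other sorts, was at 11.20, 10.59 and 10.91 in KO LSK GFPhi and at 10.09, 9.17 and 9.16 in KO LSK GFPneg-lo. It rose by 1.43 ± 0.29 (adjusted p = 0.00683), beside a WT step of 1.69 ± 0.29. The Flt3 call was lost without KO LSK GFPneg-lo replicate 2 (1.27, adjusted p = 0.0510), KO LSK GFPneg-lo replicate 3 (1.27, 0.0510) or KO LSK GFPhi replicate 1 (1.28, 0.0555).

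Il7r (chromosome 15, 9506159 to 9529941), the interleukin 7 receptor alpha chain, was at 7.40, 7.42 and 8.01 in KO LSK GFPhi and at 7.15, 7.50 and 7.16 in KO LSK GFPneg-lo. The KO groups overlapped (0.34 ± 0.26), while WT LSK GFPhi (8.20, 9.39 and 8.90) lay above WT LSK GFPneg-lo (6.91, 6.46 and 6.78). The KO step minus the WT step was -1.77 ± 0.36 (adjusted p = 0.0387). Of the 12 fits that left out 1 array, this call was kept in those without WT LSK GFPhi replicate 1, KO LSK GFPneg-lo replicate 1 and KO LSK GFPhi replicate 3 and lost in the other 9 (adjusted p up to 0.138). It was also lost in a fit of these 12 arrays alone, with the mean of all probe sets and with Eif2s3y as a covariate. Rag1 (chromosome 2, 101638252 to 101649532), the recombinase gene shown above, was near the low end of the scale, at 4.15, 4.25 and 4.04 in KO LSK GFPhi and at 4.27, 4.16 and 3.97 in KO LSK GFPneg-lo. Its KO step was 0.01 ± 0.12 and its WT step 0.80 ± 0.12, with a difference of -0.78 ± 0.17 (adjusted p = 0.0458). That call was kept without WT LSK GFPneg-lo replicate 1 or KO LSK GFPneg-lo replicate 3 and lost without any 1 of the other 10 arrays (up to 0.168). A fit of the 12 arrays alone (adjusted p = 0.110), median centring (0.0834), further quantile normalization (0.0937) and Eif2s3y as a covariate (0.0620) ended it too. Il12a, the p35 chain of interleukin 12, was the third early lymphoid gene called in this direction, with a KO step of 0.08 and a WT step of 1.28, and its call too was lost without any 1 of 10 of the 12 arrays. Ccr9, the thymus homing receptor, was at 6.01, 6.20 and 7.35 in KO LSK GFPhi and at 5.41, 6.16 and 5.63 in KO LSK GFPneg-lo, with a KO step of 0.79 ± 0.41. Its WT step of 3.03 ± 0.41 was called, but the difference of the steps (-2.24 ± 0.58) was not (adjusted p = 0.195). Notch1, the receptor of T cell specification, had a KO step of 0.54 ± 0.28 and a called WT step of 1.28 ± 0.28 (difference -0.74 ± 0.40, not called).

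Genes of the granulocyte and monocyte progenitor rose as a group in KO LSK GFPhi. Of 22 measured, 11 were higher and 0 lower (50% called against 0.934% of all genes called higher), with a median of 1.08. The WT step also had 11 higher and 0 lower (50% against 1.63% of all genes called higher), with a median of 0.93. In the difference of the steps limma called 0 of the 22 (1 at an unadjusted p under 0.05). The list's mean was 10.58 to 10.68 on the KO LSK GFPhi arrays and 9.17 to 9.45 on the KO LSK GFPneg-lo arrays, against 9.67 to 10.07 in WT LSK GFPhi and 8.70 to 8.94 in WT LSK GFPneg-lo.

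F13a1 (chromosome 13, 36867178 to 37050244), coagulation factor XIII chain A of monocytes and platelets, was at 11.36, 11.47 and 11.12 in KO LSK GFPhi and at 7.34, 8.17 and 8.16 in KO LSK GFPneg-lo. It was the largest rise of the KO step, 10.7-fold (3.43 ± 0.38, adjusted p = 1.39e-05), beside a WT step of 3.29 ± 0.38. Csf1r, the macrophage colony-stimulating factor receptor, was at 13.15, 12.79 and 12.87 in KO LSK GFPhi and at 9.12, 9.90 and 10.29 in KO LSK GFPneg-lo. The groups were well apart (3.17 ± 0.24, adjusted p = 1.12e-07), and KO LSK GFPhi was also above WT LSK GFPhi (11.47, 12.16 and 11.35). Irf8, a transcription factor of monocyte, dendritic and B cell fates, was at 10.19, 10.02 and 10.22 in KO LSK GFPhi and at 6.89, 7.30 and 7.47 in KO LSK GFPneg-lo (2.92 ± 0.31, adjusted p = 8.39e-06). Cebpa, the factor that starts the granulocyte program, rose by 1.34 ± 0.17 (adjusted p = 7.75e-05), Hp, which encodes haptoglobin, by 2.52 ± 0.44, and Mpo, the granule enzyme myeloperoxidase, by 1.25 ± 0.31 (adjusted p = 0.0380). Spi1, which encodes PU.1, rose by 1.04 ± 0.24 (adjusted p = 0.0217). The Mpo call was kept only without KO LSK GFPneg-lo replicate 3 and the Spi1 call only without KO LSK GFPhi replicate 1 when each of the 6 arrays was left out. Their estimates were 1.02 to 1.43 and 0.97 to 1.15 over all 6 omissions and adjusted p up to 0.213 and 0.110. Csf3r (0.53 ± 0.17) and Gfi1 (0.62 ± 0.30), genes of the neutrophil path, were not called.

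Genes of monocytes and macrophages rose in part. Of 18 measured, 6 were higher in KO LSK GFPhi and 0 lower (33.3% called against 2.36% of all genes, median 0.39). The WT step had 4 higher and 1 lower (27.8% against 4.52%). Ccr2, the chemokine receptor of monocytes, was at 10.64, 11.37 and 10.83 in KO LSK GFPhi and at 7.55, 8.19 and 8.42 in KO LSK GFPneg-lo (2.89 ± 0.20, adjusted p = 5.66e-08). Cd14, the lipopolysaccharide co-receptor, rose by 1.67 ± 0.22 (adjusted p = 7.75e-05). The complement genes C1qa, C1qb and C1qc of resident macrophages were not called (0.39, 0.04 and 0.18), nor were Marco, Msr1, Vcam1 or Lyz2. Apoe, the apolipoprotein E gene, was at 9.47, 10.94 and 10.67 in KO LSK GFPhi and at 11.88, 11.62 and 11.61 in KO LSK GFPneg-lo (-1.34 ± 0.38, adjusted p = 0.0755, and 0.0421 with the block). Outside these lists, the prostaglandin E2 receptor gene Ptger2 (3.29 ± 0.28), the perforin-like gene Mpeg1 (2.63 ± 0.44) and Ly86, the partner of a Toll-like receptor homologue (2.36 ± 0.30), were higher in KO LSK GFPhi, with WT steps of 2.80, 2.79 and 2.86.

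**Figure D3:**
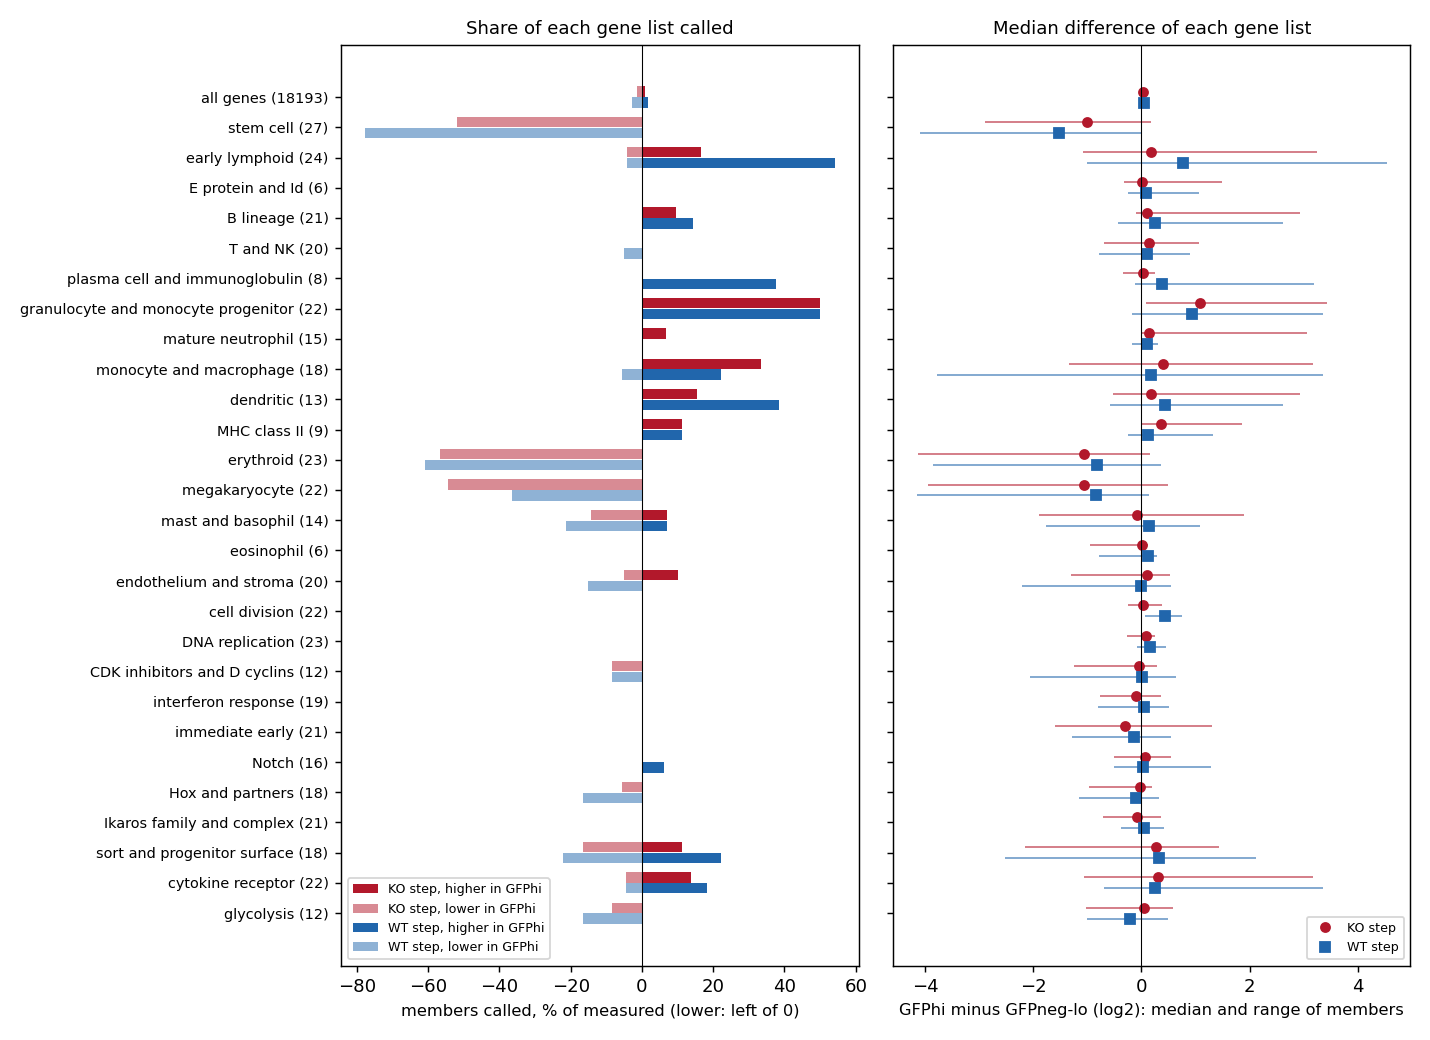
For 27 gene lists and all genes, the left panel shows the share of measured members called higher (right of 0) or lower (left of 0) in GFPhi, and the right panel the median log2 difference with a line from the lowest to the highest member, for the KO step (red, upper) and the WT step (blue, lower). The medians of the stem cell, erythroid and megakaryocyte lists lie left of 0 and that of the granulocyte and monocyte progenitor list right of 0 in both steps, and the early lymphoid share called higher is 4 of 24 in the KO step and 13 of 24 in the WT step.

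Genes that rose in the KO step and not in the WT step included Lcn2, Mrc1 and, with a far smaller WT rise, Nrp1. Nrp1 (chromosome 8, 128358591 to 128505476), the semaphorin and VEGF co-receptor neuropilin 1, was at 10.58, 9.72 and 10.07 in KO LSK GFPhi and at 6.81, 6.91 and 6.85 in KO LSK GFPneg-lo. It rose 9.61-fold (3.27 ± 0.20, adjusted p = 9.93e-09) beside a WT step of 0.78 ± 0.20, and the steps differed by 2.49 ± 0.28 (adjusted p = 0.000358). All of its other probe sets gave larger KO than WT steps (2.09 to 3.04 and 0.46 to 1.23). Lcn2 (chromosome 2, 32384637 to 32387739), the siderophore-binding protein lipocalin 2 of neutrophils, was at 8.56, 7.94 and 8.29 in KO LSK GFPhi and at 4.82, 5.28 and 5.51 in KO LSK GFPneg-lo. The WT arrays of both groups lay between 4.36 and 4.63, and the KO step of 3.05 ± 0.30 exceeded the WT step by 2.95 ± 0.42 (adjusted p = 0.00171). Lcn2 was the sole call among 15 genes of mature neutrophils (6.67% against 2.36% of all genes, and 2 with the block). In this list S100a9 (0.05), Camp (0.08), Ltf (0.09) and Ngp (0.03) were not called in the KO step, and the list's mean was 6.7 to 6.74 in KO LSK GFPhi and 6.21 to 6.47 in KO LSK GFPneg-lo. Mrc1 (chromosome 2, 14229414 to 14332023), the macrophage mannose receptor, was at 9.78, 8.65 and 8.85 in KO LSK GFPhi and at 6.78, 5.77 and 5.95 in KO LSK GFPneg-lo. Its KO step of 2.93 ± 0.39 exceeded the WT step by 2.85 ± 0.56 (adjusted p = 0.0246). This difference stayed called without KO LSK GFPneg-lo replicate 1 or KO LSK GFPhi replicate 2 or 3 and lost without any 1 of the other 9 arrays (adjusted p up to 0.0906). In all, 8 genes were higher in the KO step, not called in the WT step and called in the difference. Beside Lcn2 and Mrc1 these were Dusp9, Ms4a6d, Pxdn, Raph1, Shisa2 and Tubb6, named after their values were seen. The differences of Dusp9 and Ms4a6d were not called without probe sets ending in _x_at and _s_at, and that of Raph1 was lost without any 1 of 10 of the 12 arrays.

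Falls seen in the WT step and not called in the KO step made up the largest class of the difference, 21 genes. Their KO steps ran from -1.16 to 0.91 (median -0.17) and their WT steps from -4.39 to -1.10 (median -1.92). Tgm2 (chromosome 2, 158116405 to 158146392), tissue transglutaminase, was at 9.67, 10.66 and 10.89 in KO LSK GFPhi and at 11.12, 12.06 and 11.53 in KO LSK GFPneg-lo. Its KO step of -1.16 ± 0.35 missed the threshold (adjusted p = 0.110, and 0.00765 with the block) beside a WT step of -4.39 ± 0.35, with a difference of 3.22 ± 0.50 (adjusted p = 0.00329). Without probe sets ending in _x_at and _s_at the difference was 0.192 (adjusted p = 0.9999), from a probe set with steps of 0.26 and 0.07 in KO and WT. The remaining probe sets of Tgm2 gave KO and WT steps of -1.90 and -3.18, -1.38 and -4.42, -1.31 and -4.97, and 0.15 and -0.32. Phldb2, a gene of cell cortex and adhesion, was at 8.04, 8.56 and 8.41 in KO LSK GFPhi and at 7.92, 6.80 and 7.57 in KO LSK GFPneg-lo (0.91 ± 0.29), while its WT step was -2.20 ± 0.29. Mamdc2 had a KO step of -1.0 ± 0.30 and a WT step of -3.29 ± 0.30. A further 6 genes were lower in both steps and less so in KO, among them Sox6, an erythroid and stem cell transcription factor gene (-2.40 ± 0.24 in the KO step and -4.12 ± 0.24 in the WT step). The differences of Mamdc2 (2.30 ± 0.42) and Sox6 (1.72 ± 0.34) lost their calls without any 1 of 5 and any 1 of 7 of the 12 arrays.

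Rises seen in the WT step and not called in the KO step were called in the difference for 15 genes, with KO steps from -0.71 to 0.44 and WT steps from 0.80 to 3.19. Cmah (chromosome 13, 24327404 to 24477289), the enzyme that makes the N-glycolyl form of sialic acid, was at 8.06, 7.21 and 7.65 in KO LSK GFPhi and at 7.35, 7.48 and 7.38 in KO LSK GFPneg-lo. The KO groups overlapped (0.23 ± 0.24), and WT LSK GFPhi (10.60, 10.60 and 10.33) was about 3 log2 units above WT LSK GFPneg-lo, a difference of the steps of -2.92 ± 0.33 (adjusted p = 0.000358). Jchain (chromosome 5, 88519809 to 88527897), the joining chain of secreted antibody, was at 6.59, 5.65 and 5.93 in KO LSK GFPhi and at 6.25, 5.94 and 6.15 in KO LSK GFPneg-lo. Its WT step was 3.19 ± 0.44 and the steps differed by -3.25 ± 0.62 (adjusted p = 0.0216). This call was lost without any 1 of 6 arrays, WT LSK GFPhi replicates 1 and 3, WT LSK GFPneg-lo replicate 2, KO LSK GFPhi replicates 2 and 3 and KO LSK GFPneg-lo replicate 3 (up to 0.0771). Jchain and Sdc1 were called in this direction among 8 plasma cell and immunoglobulin genes (25.0% against 0.115% of all genes). Of these 8, limma called 0 in the KO step (1 at an unadjusted p under 0.05) and 3 were higher in the WT step (37.5% against 1.63% of all genes). Sdc1 had a difference of -2.21 by its brightest probe set. The other probe sets of Sdc1 gave KO and WT steps of 0.13 and 0.72, -0.91 and 2.72, and 0.14 and 0.02. Ddx4, a germ cell RNA helicase gene, had a KO step of -0.71 ± 0.41 and a WT step of 2.96 ± 0.41. Slc35d3 (chromosome 10, 19847917 to 19856634), a transporter gene of platelet granule formation in mice, was the sole gene called in opposite directions in the KO and WT steps. It was at 5.56, 5.53 and 5.79 in KO LSK GFPhi and at 6.13, 8.46 and 8.28 in KO LSK GFPneg-lo, where replicate 1 lay near the GFPhi arrays. Its KO step of -2.00 ± 0.47 (adjusted p = 0.0235) was not called without KO LSK GFPneg-lo replicate 2 or 3 or without any 1 KO LSK GFPhi array (-1.58 to -2.08, adjusted p 0.0678 to 0.157). Nor was this KO step called in a fit of the 6 KO arrays alone (adjusted p = 0.154). The difference of -3.89 ± 0.67 from the WT step (1.90 ± 0.47) was called in each of the 12 fits that left out 1 array. In a fit of the 12 compared arrays alone the difference was called for 30 genes, and Slc35d3 (adjusted p = 0.0526), Procr, Sdc1, Ddx4 and the immunoglobulin kappa gene Igkv8-30 (0.131) were among those that were not. The differences of Nrp1, Lcn2, Cmah, Fgd5, Klhl30 and Phldb2 were called under every alternative run that kept the gene. With the dimmest 40% of genes left out, only 9 of the 17 called differences in the tally below were tested.

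**Figure D4:**
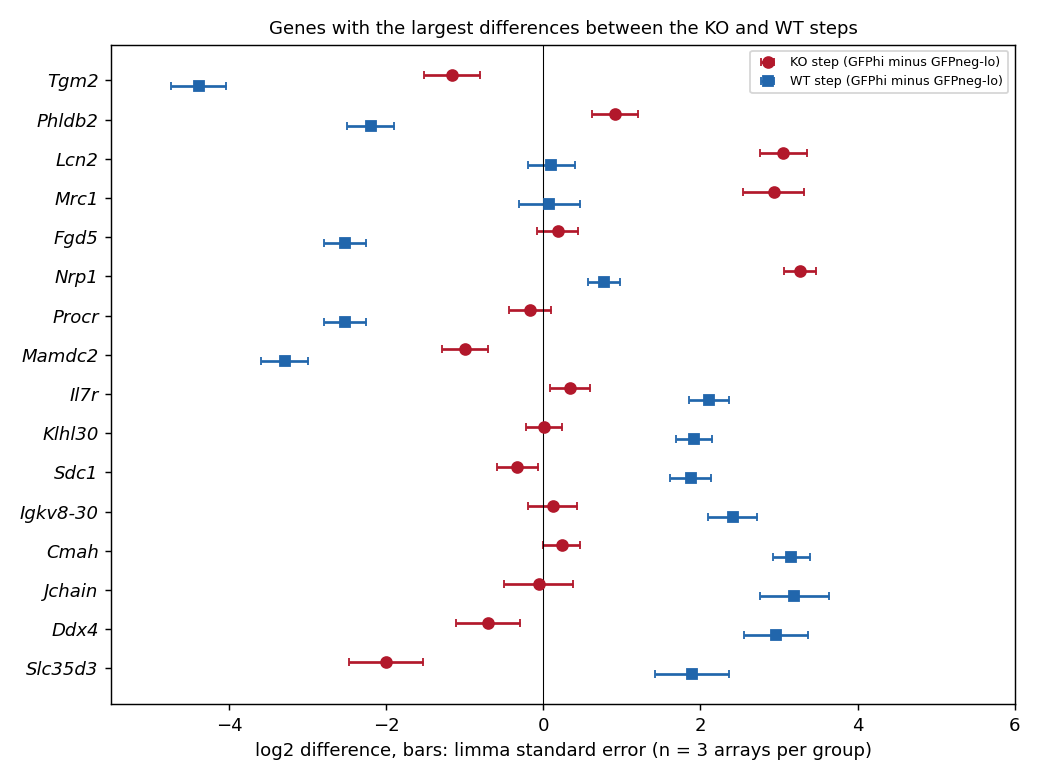
KO step (red circles) and WT step (blue squares) of the 16 genes named for the largest differences between the steps, on a log2 axis with limma standard errors. The upper 8 genes have KO steps above WT steps, from Tgm2 (3.22) to Mamdc2 (2.30), and the lower 8 have KO steps below WT steps, from Il7r (-1.77) to Slc35d3 (-3.89).

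Across the genes called higher in WT LSK GFPhi (296), 95 were also called higher in KO LSK GFPhi (32.1%, against 0.934% of all genes). These 95 made up 55.9% of the 170 genes higher in KO LSK GFPhi, against 1.63% of all genes called higher in the WT step. The KO steps of the 296 had the sign of the WT step in 275 (92.9%), with a median of 0.43 in KO and 0.84 in WT. Of the 526 genes called lower in WT LSK GFPhi, 196 were called lower in KO LSK GFPhi (37.3%, against 1.42% of all genes). These 196 made up 75.7% of the 259 lower there, against 2.89% of all genes called lower in the WT step. Of the 526, 503 had the same sign (95.6%), with medians of -0.55 in KO and -0.96 in WT. The share of all genes with the same sign in both steps was not counted. Genes were chosen here for their WT call, so a smaller median in the KO step is a description and was not tested. For 185 of the 296 and 309 of the 526 neither the KO step nor the difference of the steps was called, so no difference between the steps is shown for them. With the replicate block the shared calls numbered 168 and 382.

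Few calls were made in other gene groups of the KO step, to be read beside 2.36% of all genes called (889 of 18193 with the block). In short lists these few calls still made up shares above 2.36%. They were 9.52% of the B lineage, 15.4% of the dendritic, 11.1% of the MHC class II and 21.4% of the mast and basophil genes. Among 22 cell division genes limma called 0 in the KO step (median 0.03, 0 at an unadjusted p under 0.05) and 0 in the WT step (median 0.43, 7 at an unadjusted p under 0.05), and Mki67, the proliferation antigen, had a KO step of -0.17 ± 0.26. Limma also called 0 of 23 DNA replication genes (1 at an unadjusted p under 0.05), 0 of 16 Notch pathway genes (1), 0 of 6 E protein and Id genes (1), 0 of 6 eosinophil genes (0) and 0 of 21 Ikaros family and complex genes (2). Of 20 T and NK genes (6 at that p), 19 interferon response genes (2) and 21 immediate early genes (2) it called 0 as well, beside 1962 of all genes at an unadjusted p under 0.05. With the replicate block the T and NK list had 1 higher and 1 lower, the interferon list 2 lower, and the immediate early and Notch lists 1 lower each. Of 21 B lineage genes, Irf8 and Igll1 rose, and Ebf1 (-0.01) and Pax5 (0.01), the factors of B cell commitment, were not called. The surrogate light chain gene Igll1 (0.76 ± 0.20, adjusted p = 0.0479) kept its call only without KO LSK GFPhi replicate 2 when each array was left out. It was also not called without probe sets ending in _x_at and _s_at (0.205, adjusted p = 0.736), with the mean of its probe sets (0.485, 0.0508), with Eif2s3y as a covariate (0.0571) or in a fit of the 6 KO arrays alone (0.12). Of 13 dendritic cell genes, Irf8 and Flt3 rose. Of 9 MHC class II genes, H2-Aa was higher (11.90, 9.76 and 10.55 in KO LSK GFPhi, against 8.97, 9.22 and 8.43 in KO LSK GFPneg-lo). The difference was 1.86 ± 0.47 (adjusted p = 0.0399), and H2-Aa likewise kept its call only without KO LSK GFPhi replicate 2 (adjusted p up to 0.27 otherwise). It lost the call in a fit of the 6 KO arrays alone (adjusted p = 0.133) and with the mean of its probe sets (1.69, 0.146). Mast and basophil genes split, with Mcpt8 (1.90 ± 0.26) higher and the IgE receptor gene Fcer1a (-1.88 ± 0.34) and Gata2 lower among 14 (4 lower with the block). Fcer1a (adjusted p = 0.0722) and Gata2 (0.0715) were not called in the fit of the 6 KO arrays alone.

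Among 20 endothelial and stromal genes, Cdh5 and Ramp2 were higher and Tek lower. Cdh5, which encodes VE-cadherin, was at 10.32, 10.21 and 10.39 in KO LSK GFPhi and at 9.85, 9.79 and 9.66 in KO LSK GFPneg-lo, against 4.82 to 5.0 on the WT arrays. Its KO step was small beside this gap (0.54 ± 0.13, adjusted p = 0.0300) and kept its call only without KO LSK GFPhi replicate 2. Ramp2, a subunit of the adrenomedullin receptor (0.40), lost its call without KO LSK GFPneg-lo replicate 1 or 2 or KO LSK GFPhi replicate 1 (adjusted p 0.0547 to 0.147). The part of endothelial cells in these values was not tested. The list's mean was 7.16 to 7.5 in KO LSK GFPhi and 7.29 to 7.42 in KO LSK GFPneg-lo, and Pecam1 (0.04), Emcn (0.05) and Cav1 (0.14) of endothelium were not called. Of 18 Hox and partner genes, Hoxb5 alone was called (5.56%), and Hoxa9, a stem and progenitor homeobox gene, had a KO step of -0.08 ± 0.21. Of 22 cytokine receptor genes, Csf1r, Flt3 and Il1r1 rose and Epor fell (18.2% called). Of 18 sort and progenitor surface genes, Flt3 and Cd244a rose and Slamf1, Itga2b and Cd9 fell (27.8% called, and 3 higher and 5 lower with the block). Of these, Il1r1 kept its call only without KO LSK GFPneg-lo replicate 1, Cd244a lost it without KO LSK GFPneg-lo replicate 1 or 2 or KO LSK GFPhi replicate 2 or 3, and Cd9 lost it without KO LSK GFPhi replicate 3. Cd34 (0.43 ± 0.40) and Cd48 (0.35 ± 0.55), antigens used in progenitor sorts, were not called. Cdkn1c was lower among 12 CDK inhibitor and D cyclin genes (8.33% called, and 3 lower with the block). Slc2a3 was lower among 12 glycolysis genes (8.33% called) by its brightest probe set (-1.02 ± 0.15). With the block this list had 2 higher and 1 lower. Without probe sets ending in _x_at and _s_at the KO step of Slc2a3 was 0.07 and not called (adjusted p = 0.852). That value came from a probe set with a mean signal of 5.05 over the LSK arrays. The remaining probe sets of Slc2a3 gave KO steps of -1.03 (mean signal 10.36) and 0.075 (5.13). The stem cell gene Ctnnal1 (-1.20 ± 0.17) likewise had a KO step of 0.15, not called, in that setting (adjusted p = 0.728).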

How the data were processed

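RNA of 4 sorted populations of 2 genotypes was measured on 24 arrays, 3 per group. Per the labels' protocols, the input was 6 ug of total RNA taken up in Trizol, labelled as biotinylated cRNA. Per the submitters' processing notes, the authors used RMA (version: not given in the sources used here), and the deposited values are log2 signals (3.33 to 14.5). Precision is limited by the number of arrays.

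Of 45101 probe sets, 64 controls, 932 with several genes and 9160 with none were left out. Of the other 34945, 34741 matched the RefSeq gene table (GRCm38.p6) by Entrez ID, and the brightest probe set per gene was kept (18193 genes). Groups were taken from the titles. One limma 3.58.1 fit in R 4.3.3 (lmFit, eBayes) of 8 group means had 16 residual and 3.27 prior degrees of freedom, with two-sided p-values adjusted by Benjamini and Hochberg over all genes of a comparison. Exact permutation of 3 against 3 arrays cannot go below p = 0.1.

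The members, the 28 gene lists, the tests and the alternatives were chosen with earlier results of these data known. Named genes were the 12 largest rises and falls of each step among called genes with no overlap of arrays, the 8 largest each way in the difference, up to 3 called members per list and a panel of 37 genes, 34 of them measured. Clone symbols were passed over, and further list members were named after their values were seen.

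Deviations of same-numbered arrays from their group means correlated at r = 0.544, 0.369 and 0.268 in KO and 0.708, 0.681 and 0.414 in WT, all over 0.1, so the replicate numbers were taken to pair GFPhi with GFPneg-lo arrays within a genotype. KO LSK GFPhi replicate 3, however, correlated more with KO LSK GFPneg-lo replicate 2 (r = 0.337) than with replicate 3. Same-numbered KO and WT arrays also correlated, at 0.652, 0.189 and 0.024 in LSK GFPhi and 0.540, 0.489 and 0.276 in LSK GFPneg-lo. The block within a genotype does not take this up. The pairing comes from this check and not from a statement in the labels.

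Tested on simulated data in which 200 of 18193 genes were shifted by 0.5, 1 or 2 log2 units, the fit recovered 43.3%, 80.6% and 97.0% in the KO step (5.77% false calls) and 16.4%, 52.2% and 90.9% in the difference (9.40% false calls). Alternatives were a fit of the compared arrays alone, the replicate block, the dimmest 40% of genes left out, _x_at and _s_at probe sets left out, the mean of all probe sets, array weights, a robust eBayes with trend, quantile normalization, median centring, a 2-fold minimum, Eif2s3y as a covariate and each array left out in turn.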

Additional observations from a re-analysis of the deposited data

Results flagged for a closer look

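The genes below had a difference between the KO step and the WT step (each LSK GFPhi minus LSK GFPneg-lo) that passed the limma test of that difference itself; values are KO step minus WT step on the log2 scale. Above the WT step were Tgm2 (3.22), Phldb2 (3.11), Lcn2 (2.95), Mrc1 (2.85), Fgd5 (2.70), Nrp1 (2.49), Procr (2.36), Mamdc2 (2.30) and Sox6 (1.72). That of Tgm2 was 0.192 (adjusted p = 0.9999) without probe sets ending in _x_at and _s_at, from a probe set with KO and WT steps of 0.26 and 0.07. The remaining probe sets of Tgm2 gave -1.90 and -3.18, -1.38 and -4.42, -1.31 and -4.97, and 0.15 and -0.32. Below the WT step were Slc35d3 (-3.89), Ddx4 (-3.67), Jchain (-3.25), Cmah (-2.92), the immunoglobulin kappa gene Igkv8-30 (-2.29), Sdc1 (-2.21), Klhl30 (-1.90), Il7r (-1.77), the thrombin receptor family gene F2rl2 (-1.43) and Rag1 (-0.78). The difference of Igkv8-30 was not called in the fit of the 12 compared arrays alone (adjusted p = 0.131) or without any 1 of WT LSK GFPneg-lo replicate 3, KO LSK GFPneg-lo replicate 2 and KO LSK GFPhi replicates 2 and 3 (0.0595 to 0.0707).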

How the results depend on the processing

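Of the genes chosen by the naming rule, 38 of 56 called in the KO step kept their call and direction under every alternative that kept the gene. In the difference of the steps, where the tally took only genes named for it or in the panel, 6 of 17 did. With the dimmest 40% of genes left out, only 48 of the 56 and 9 of the 17 were tested. Further genes named in the text are not in this tally. With the replicate block the calls numbered 889 in the KO step, 1491 in the WT step, 101 in the difference and 168 and 382 shared between the steps (higher and lower), and it ended no KO step call of a gene in this tally. Array weights gave 1049, 133, 159 and 309 for the KO step, the difference and the shared calls. A 2-fold minimum gave 238 and 374 calls in the KO and WT steps and 51 and 108 shared. The difference had 30 calls in a fit of the 12 compared arrays and 34 without the dimmest 40% of genes. Leaving out each array in turn gave 270 to 364 calls in the KO step, 560 to 746 in the WT step, 30 to 69 in the difference, and 63 to 83 and 126 to 186 shared. The lowest counts came without KO LSK GFPhi replicate 1 (KO step, shared lower), without KO LSK GFPneg-lo replicate 3 (difference) and without KO LSK GFPneg-lo replicate 2 (shared higher). Without _x_at and _s_at probe sets the KO step of Ctnnal1 was 0.147 and that of Slc2a3 0.067, from other probe sets, against falls by their brightest ones. The same setting ended the calls of Igll1 (0.205) and Dntt (1.42) in the KO step and of the Tgm2 difference (0.192). Of the 57 differences, the block ended 2 (Mboat2 and Sstr2). With 3 arrays per group, small changes are missed more often in the difference than within a step, as the simulated data show.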

Other observations

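The LK GFPhi gate, which the labels name GMP, was set beside the KO step for the genes that differed most. Lcn2 averaged 10.02 ± 0.57 in KO LK GFPhi (SD, n = 3), above every KO LSK GFPhi array (mean 8.26 ± 0.31). Mrc1 (8.66 ± 1.22) and Nrp1 (9.57 ± 0.24) in KO LK GFPhi overlapped their KO LSK GFPhi arrays (9.10 ± 0.60 and 10.12 ± 0.43). Nrp1 was also high in WT LK GFPhi (8.91 ± 0.03, against 6.83 ± 0.43 in WT LSK GFPhi). Lcn2 and Mrc1 averaged 5.27 ± 0.81 and 4.98 ± 0.05 in WT LK GFPhi. Fgd5 and Procr averaged 10.49 ± 0.30 and 10.06 ± 0.30 in KO LK GFPhi, and 5.91 ± 0.46 and 6.43 ± 0.16 in KO LK GFPneg, which the labels name MEP. Dntt (9.44 ± 1.69, with 1 array at 11.39) overlapped its KO LSK GFPhi arrays (11.50 ± 0.53), and Flt3 (10.01 ± 0.69) lay below its own (10.90 ± 0.31). None of these LK comparisons was tested. Across all 18193 genes the KO and WT steps, which share no arrays, correlated at r = 0.730, and over the 959 genes called in either step at 0.806, as a description with genes that are not independent.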
